A study of Citrus sinensis with 4 samples.

Results

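The subject is a group of 91 abundant peel transcripts of 'Newhall' navel orange whose levels stayed within a narrow band at 120 and 150 days after flowering. They were chosen from the 31126 loci of the deposited expression table by their own values. A member carries a single reference identifier, which 28724 loci do, has at least 300 FPKM in the lowest of the 4 libraries, and has a highest value at most 1.4 times its lowest. FPKM is the number of sequenced fragments scaled to transcript length and to the mapped fragments of the library, so that levels of different genes can be set side by side per length. The floor of 300 FPKM was met by 165 loci with a single identifier. The members are 91 of these, and the other 74 ranged more widely than the limit. All 4 values of each locus entered the choice, so the small differences between stages and libraries below describe the members and are no finding about them.

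The fruit peel of sweet orange (Citrus sinensis) consists of the coloured outer flavedo, with its epidermis and oil glands, and the white inner albedo. A cuticle of cutin and waxes covers the epidermis and limits water loss, and the title of the series names its formation during fruit development and ripening. In plant tissues in general, transcripts that stay abundant through development often belong to basic functions such as protein synthesis, energy metabolism and the cytoskeleton, and steady ones serve as internal references for measurements of other genes. Which of these functions the members have could not be read here. The identifiers are those of the authors' annotation, and 0 of the 91 were found among the 29331 genes of the RefSeq table of the assembly DVS_A1.0, so no member is given a name or a function and no sequence is shown. For the same reason the peel label could not be checked against marker genes.

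The plants are described as untreated, and each stage is represented by 2 libraries, each made from a pool and described as an independent biological replicate. The labels do not say how many fruits or trees a pool holds. Fragment numbers are not part of the table, so the depth is unknown and no counting error can be given. The median FPKM over all 18727 tested loci (those with a mean of at least 1 FPKM) lay between 14.6 and 15.1 in every library. In bulk tissue, fewer cells of a type and less RNA per cell cannot be told apart, and a steady FPKM does not show a steady amount per cell. FPKM does not sum to a constant either: the sum over all loci was 3971545 and 3382405 FPKM at 120 days (replicate 1, then replicate 2, as in all pairs of values below) and 3258399 and 4278581 FPKM at 150 days.

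The summed level of the members differed little between the libraries, and a small number of members held much of it. Summed over the members, FPKM came to 74456 and 76780 at 120 days and to 74770 and 78272 at 150 days, so both replicates 2 lay above both replicates 1. Of the sum over all loci this was 1.87% and 2.27% at 120 days and 2.29% and 1.83% at 150 days, so the share differed more within each stage than between the stage means. It was low in 120-day replicate 1 and 150-day replicate 2, where the sum over all loci was high, while the members' own sum varied little. Loci with a single identifier held only 750464 and 751528 FPKM of the sum over all loci at 120 days, and 779060 and 869594 FPKM at 150 days. The members made up 9.92% and 10.2% of the sum over all loci with a single identifier at 120 days and 9.598% and 9.001% at 150 days. The 74 abundant loci past the limit held 23.0% and 23.7% of that sum at 120 days and 27.1% and 31.7% at 150 days. A single one of them, Cs6g11790, held 97365 of their 275351 FPKM in 150-day replicate 2, and 40869 of their 211331 FPKM in 150-day replicate 1. The 31.7%, and the members' 9.001% in the same library, therefore lean on 1 locus. Within the members, the 6 with the highest means accounted for between 34.2% and 35.2% of the members' sum in each library.

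**Figure D1:**
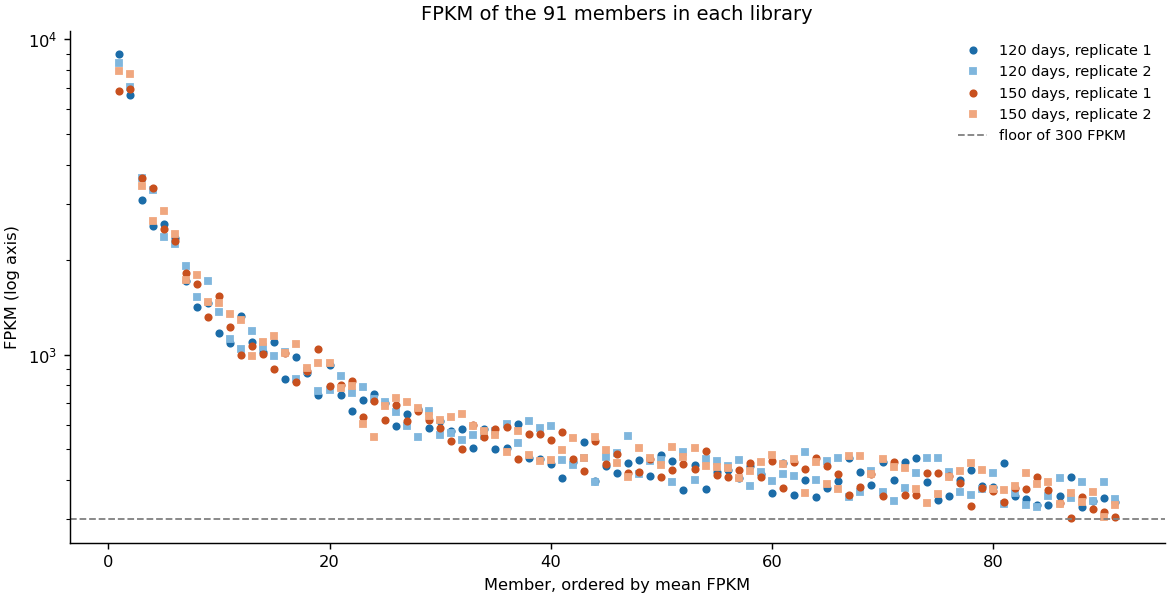
FPKM of each of the 91 members (log axis) in the 2 libraries of 120 days and the 2 of 150 days, with members ordered by their mean and the floor of 300 FPKM as a dashed line. The level drops from 8015 to 332 FPKM along the order, and the 4 points of a member lie close together because the members were chosen so.

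Levels among the members spanned a wide range. The mean over the 4 libraries ran from 332 to 8015 FPKM with a median of 461 FPKM. Of the 91, 15 had a mean of at least 1000 FPKM, 25 lay between 500 and 1000 FPKM and 51 under 500 FPKM. The best-placed member ranked 6th or 7th among loci with a single identifier in every library, and the lowest-placed ranked between 197 and 244. Among the 10 loci with the highest means in that class 2 were members, among the first 50 there were 18, and among the first 100 there were 40. A member changed its rank by a median of 33 places between libraries and by at most 93. The 74 abundant loci past the limit moved by a median of 50 and at most 202 places. The ratio that parts these groups comes from the same values, so the smaller moves of the members follow largely from the choice. The groups also differ in level, with a median of 461 FPKM against 774 FPKM.

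The most abundant member was Cs9g04210 (XLOC_023779). Its values were 8938 and 8376 FPKM at 120 days, then 6829 and 7915.5 FPKM at 150 days. Both 120-day values were above both 150-day values, by a log2 difference of -0.23 (SE 0.27, limma adjusted p = 0.782). Cs6g11770 (XLOC_016497) followed with 6667 and 7055 FPKM at 120 days, and then 6962 and 7753 FPKM at 150 days. Its stages overlapped. The next locus in the numbering of the table, Cs6g11790, is no member. It stood at 30940 and 39628 FPKM at 120 days and at 40869 and 97365 FPKM at 150 days, so the 2 adjacent loci differed widely in both level and range.

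Of the other members among the first 6 by mean, Cs9g03630 (XLOC_022777) stood at 3081 and 3624 FPKM at 120 days and at 3638 and 3430 FPKM at 150 days. Cs8g14690 (XLOC_021155) stood at 2556 and 3327 FPKM at 120 days and at 3372 and 2650 FPKM at 150 days. In it the 2 libraries of a stage differed more than the stage means, which were 2941 ± 546 and 3011 ± 510 FPKM (SD, n = 2). Cs4g19980 (XLOC_010083) had stage means of 2469 ± 163 and 2678 ± 258 FPKM, and Cs3g15390 (XLOC_006898) of 2291 ± 76.1 and 2349 ± 90.1 FPKM (SD, n = 2). The stages overlapped in Cs9g03630, Cs8g14690, Cs4g19980 and Cs3g15390 alike.

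The ratio of highest to lowest value was between 1.04 and 1.399 by the choice of the members, with a median of 1.23. It was at most 1.1 in 6 members, between 1.1 and 1.2 in 29, between 1.2 and 1.3 in 28 and between 1.3 and 1.4 in 28. The members thus did not crowd at the upper limit. The narrowest was Cs1g22440 (XLOC_001090), with 872 and 889 FPKM at 120 days, and then 888 and 904 FPKM at 150 days, a ratio of 1.04. Cs9g17130 (XLOC_023505) had 580.2 and 552 FPKM at 120 days, and then 549 and 572 FPKM at 150 days, a ratio of 1.06. The remaining members with a ratio of at most 1.1 were Cs3g15390 (1.08), Cs9g13070 (1.08), Cs8g14970 (1.09) and Cs8g07960 (1.097). Their means, 2320 FPKM for Cs3g15390, 371 FPKM for Cs9g13070, 430.4 FPKM for Cs8g14970 and 1044 FPKM for Cs8g07960, show that narrow ranges occurred at high and at low levels of the group.

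**Figure D2:**
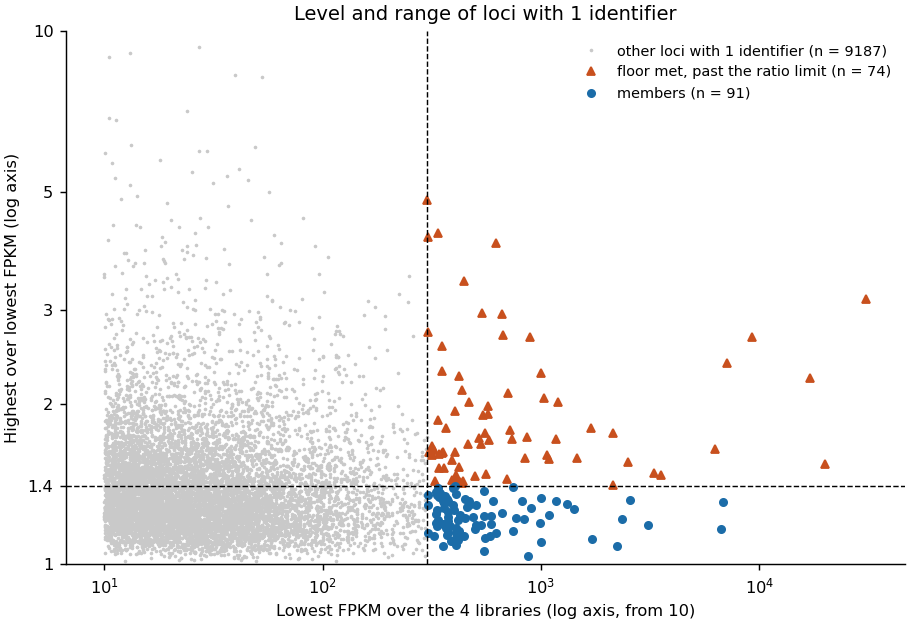
Lowest FPKM over the 4 libraries (log axis, from 10 FPKM) against the ratio of highest to lowest FPKM (log axis) for loci with a single identifier, with dashed lines at 300 FPKM and 1.4. Members (circles) fill the lower right field, the 74 abundant loci past the limit (triangles) reach a ratio of 4.83, and 1 locus above a ratio of 10 is not drawn.

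Members just inside the limit on the ratio were orange1.1t02241 (1.399), Cs5g18930 (1.396), Cs5g02000 (1.39), Cs6g10960 (1.39), Cs8g09070 (1.37) and Cs6g07530 (1.37). The loci nearest past it were orange1.1t00469 with 1.404, Cs2g06620 with 1.42 and Cs3g24730 with 1.42. The first of these stood at 2577 and 2126 FPKM at 120 days and at 2412 and 2984 FPKM at 150 days, above the level of most members. Just inside the floor, the lowest value was 304 FPKM in Cs7g01470, 305 FPKM in Cs6g07830, 305 FPKM in Cs6g18590 and 324 FPKM in Cs7g30845. Just under it, with the ratio met, were Cs6g15540 with 294 FPKM, Cs7g11620 with 294 FPKM and Cs6g06310 with 294 FPKM. Cs6g15540 had a ratio of 1.03, narrower than that of any member. The borders of the group are therefore set by the limits and not by a gap in the values.

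The comparison of the stages shows how the members' small differences stand against the spread between libraries. In the limma fit over all tested loci, with Benjamini-Hochberg adjustment, 535 of 18727 loci (2.86%) were called between 150 and 120 days, 1.92% higher and 0.94% lower at 150 days, and 0 of the 91 members were. The count over all loci rests on each library: it was 313 and 146 without 120-day replicate 1 or 2, 39 and 15 without 150-day replicate 1 or 2, and 870 with the replicate number as a block. At an unadjusted p under 0.05 there was 1 member, against 16.8% of all tested loci. The limit of 1.4 on the ratio caps every member's change, so these counts follow from the choice of the members. Among the 74 abundant loci past the limit, 8 were called, 4 higher and 4 lower at 150 days. The median log2 change (150 minus 120 days, on the log2(FPKM + 1) scale) was 0.03 over the members, with quartiles of -0.06 and 0.11 and extremes of -0.28 and 0.45. The sign of that median turned under quantile normalization, to -0.0093, and without 150-day replicate 2, to -0.0032. The median was -0.01 over all tested loci and 0.25 over the 74 abundant loci past the limit.

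The stages did not overlap in 32 members, 19 of them higher and 13 lower at 150 days, where 44.9% of all tested loci did not overlap, 22.5% higher and 22.4% lower. In the other 59 members the ranges of the 2 stages overlapped. The standard error of a member's log2 change had a median of 0.16 and reached 0.27. The 95% interval of the change lay within 2-fold in either direction for all 91 members and within 1.5-fold for 60 of them. For the other 31 the interval reached past 1.5-fold. The limit on the ratio caps every member's change, so these counts follow largely from the choice of the members. The intervals take no account of that choice and do not show that the members are unchanged.

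The largest stage difference among the members was that of Cs5g02000 (XLOC_011224). Its values were 398 and 395 FPKM at 120 days, then 533 and 549 FPKM at 150 days. Both 150-day values were well above both 120-day values, and the libraries of a stage lay close together. The difference of the means was 36.3%, a log2 change of 0.45 (SE 0.14, 95% interval 0.09 to 0.80), and it did not pass the threshold (limma adjusted p = 0.203). This was the member that passed without adjustment. Cs5g18930 (XLOC_013864) stood at 746 and 767 FPKM at 120 days and at 1042 and 939 FPKM at 150 days, without overlap and 30.9% higher on average (limma adjusted p = 0.33). Cs2g21000 (XLOC_003901) stood at 365 and 398 FPKM at 120 days and at 460.5 and 481 FPKM at 150 days, 23.3% higher (limma adjusted p = 0.402). The stages of orange1.1t02241 (XLOC_028847), at 406 and 462 FPKM and then at 568 and 499 FPKM, did not overlap either, with a difference of 23.0%.

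In the other direction, orange1.1t01892 (XLOC_025621) stood at 715 and 790.1 FPKM at 120 days and at 634 and 603 FPKM at 150 days. The stages did not overlap, the mean was 17.8% lower at 150 days, and the difference did not pass the threshold (limma adjusted p = 0.484). Cs6g13660 (XLOC_016592) stood at 471 and 419.8 FPKM at 120 days and at 360.0 and 374 FPKM at 150 days, 17.6% lower on average. Cs8g06360 (XLOC_020714) stood at 452 and 552 FPKM at 120 days and at 422 and 408 FPKM at 150 days, 17.4% lower on average. Both were without overlap (limma adjusted p = 0.462 and 0.544). Among the members with the lowest values, Cs6g07830 (XLOC_015248) went from 372 ± 30.4 to 310.2 ± 7.77 FPKM and Cs7g01470 (XLOC_018782) from 381 ± 40.8 to 334 ± 42.4 FPKM. Cs6g18590 (XLOC_016853) had 345 ± 6.36 and 319 ± 19.2 FPKM, and Cs7g30845 (XLOC_018684) had 343 ± 0.293 and 345 ± 29.7 FPKM (SD, n = 2). The SD of 0.293 FPKM comes from 2 values and does not give the precision of the level.

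**Figure D3:**
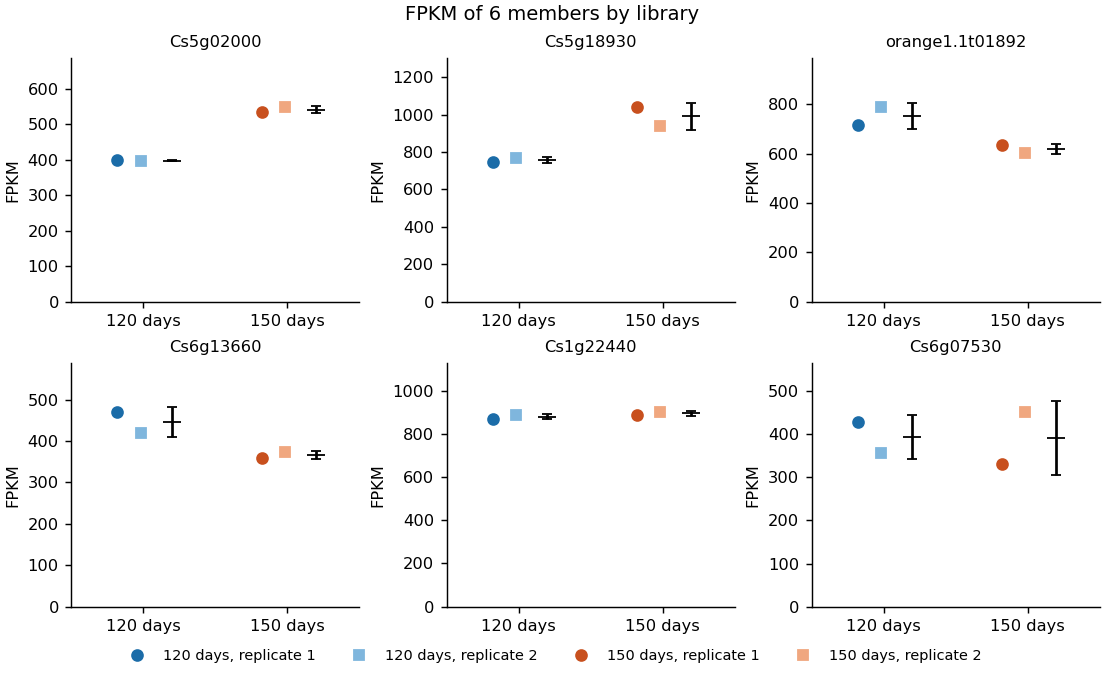
FPKM (axis from 0) of 6 members in each library, with circles for replicate 1, squares for replicate 2, and the stage mean ± SD (n = 2) as a bar beside the points. Cs5g02000 and Cs5g18930 lie higher at 150 days and orange1.1t01892 and Cs6g13660 lower, none past the threshold, Cs1g22440 is level, and in Cs6g07530 the 2 replicates of a stage differ more than the stages.

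Within the narrow band, the largest difference of most members lay between libraries of the same stage. The 4 values of a member were divided into 3 differences on the log2 FPKM scale: between the stages, between the replicate numbers, and crossed, that is 120-day replicate 1 and 150-day replicate 2 against the other libraries. The crossed difference was the largest of the 3 in 47 members (51.6%), the stage difference in 32 and the number difference in 12. The stage difference is the largest exactly where the stages do not overlap, so these 32 are the members counted above as not overlapping. The crossed and the number difference both lie within the stages. Without any stage effect, one or the other would therefore be the largest more often than the stage difference. Over the tested loci above 0 in every library, the crossed difference was largest in 42.2% and the stage difference in 45.0%. For the 74 abundant loci past the limit these were 35.1% and 62.2%. The median size of the crossed difference was 0.13 over the members, against 0.10 for the stage difference. The limit on the ratio acts on all 3 differences, so the order of their sizes is a description.

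The member Cs6g07530 (XLOC_015232) shows the crossed pattern. It stood at 429 and 358 FPKM at 120 days and at 331 and 453 FPKM at 150 days, so that replicate 1 was high at 120 days and low at 150 days. Its stage means of 393 ± 50.6 and 392 ± 85.8 FPKM (SD, n = 2) were close while the crossed difference was 0.36. Cs6g10960 (XLOC_016454) had the opposite sign, with 394 and 469 FPKM at 120 days, and then 422 and 338 FPKM at 150 days. Cs8g09070 (XLOC_020854) is no case of the crossed pattern. It owed its range to a single library, with 748 and 723 FPKM at 120 days, and then 714 and 546 FPKM at 150 days. Its stages did not overlap, and its stage difference (-0.24) was larger in size than its crossed difference (-0.17). Of the 47 members whose crossed difference was the largest, 27 were high in 120-day replicate 1 and 150-day replicate 2 and 20 were low there. Within-stage differences of opposite sign at the 2 stages were found in 65 members (71.4%), close to the 70.2% of all tested loci. The correlation of the 2 within-stage differences was r = -0.74 across the 91 members and -0.33 across the 18727 tested loci. It is given as a description, since loci of a library share its preparation and the limit on the ratio acts on both differences. These 2 sets also differ in level, with medians of 461 and 15.1 FPKM, so the stronger correlation is not shown to be particular to the members. In 120-day replicate 1 and 150-day replicate 2, 29.8% of 1240 loci under 0.4 FPKM also stood in the same ratio to each other within 0.1%. Between the other crossed libraries, 120-day replicate 2 and 150-day replicate 1, 1.59% of 1192 such loci did. In each remaining pair of libraries it was at most 0.534%. Whether the crossed libraries share a preparation or a run is not given in the labels, and its part in the values was not tested.

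**Figure D4:**
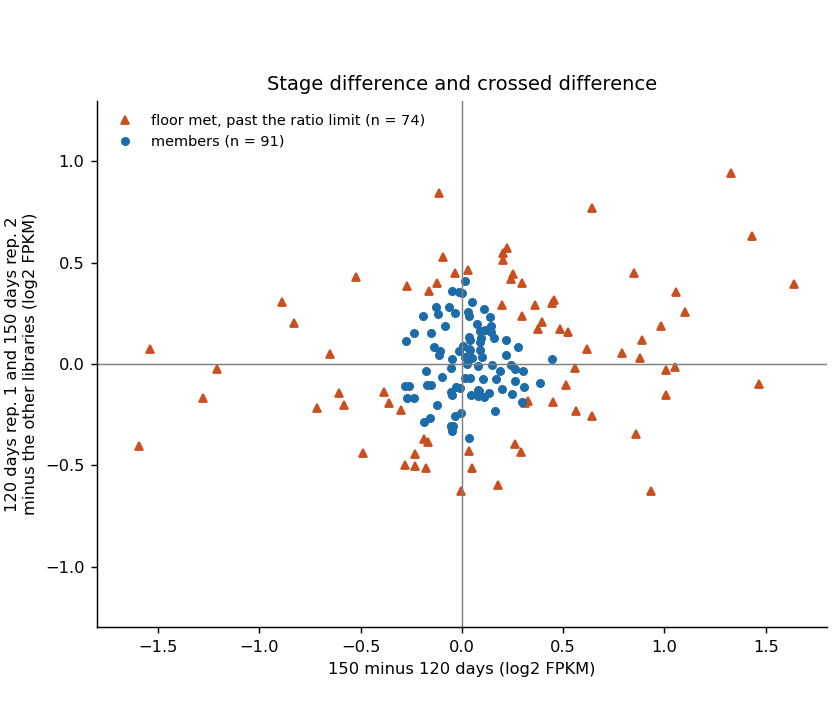
Stage difference (150 minus 120 days) against the crossed difference (120-day replicate 1 and 150-day replicate 2 minus the other libraries), both in log2 FPKM, for the 91 members (circles) and the 74 abundant loci past the limit (triangles). Members form a compact cloud that is about as wide along the crossed axis as along the stage axis, with median sizes of 0.13 and 0.10.

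A further pattern of the libraries showed in the sign of small differences, which the limit on the ratio does not fix. Replicate 2 was above replicate 1, averaged over the stages on the log2 scale, in 76 of the 91 members (83.5%), and in 57 of the 74 abundant loci past the limit (77.03%). Over all tested loci above 0 it was so in 52.2%. The difference was small, with a median of 0.06 over the members. It depended on the scaling: 77 members were higher in replicate 2 after scaling to a common median, and 51 (56.0%) after quantile normalization, which gives all libraries the same distribution. Across loci with a single identifier the share moved with the level: it was 47.5% at a mean of 1 to 3 FPKM, 49.6% at 10 to 30 FPKM, 70.8% at 100 to 300 FPKM and 88.4% from 1000 FPKM. Loci of a library are not independent of each other, so this is a property of these 4 libraries. The highest of the 4 values was most often in 150-day replicate 2, in 36 members, and the lowest most often in 120-day replicate 1, in 35. Among the 74 abundant loci past the limit, the highest was also most often in 150-day replicate 2 (32), and the lowest in 120-day replicate 2 (25). Over all 18727 tested loci the highest was most often in 120-day replicate 2 (5822) and the lowest in 150-day replicate 2 (5513).

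Being steady was not a mark of the highest levels. Among loci with a single identifier, the share whose highest value was at most 1.4 times the lowest was 15.0% at a mean of 1 to 3 FPKM and 35.1% at 3 to 10 FPKM. It was 55.9% at 10 to 30 FPKM and 60.1% at 30 to 100 FPKM, and then 56.6% at 100 to 300 FPKM, 51.3% of 187 loci at 300 to 1000 FPKM and 34.1% of 44 loci from 1000 FPKM. The median ratio was 1.33 at 30 to 100 FPKM and 1.58 from 1000 FPKM. The median size of the stage difference was 0.16 and 0.27 in these 2 classes, while that of the crossed difference was 0.18 and 0.19. Low loci carry more counting error, whose size is unknown here without fragment numbers.

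**Figure D5:**
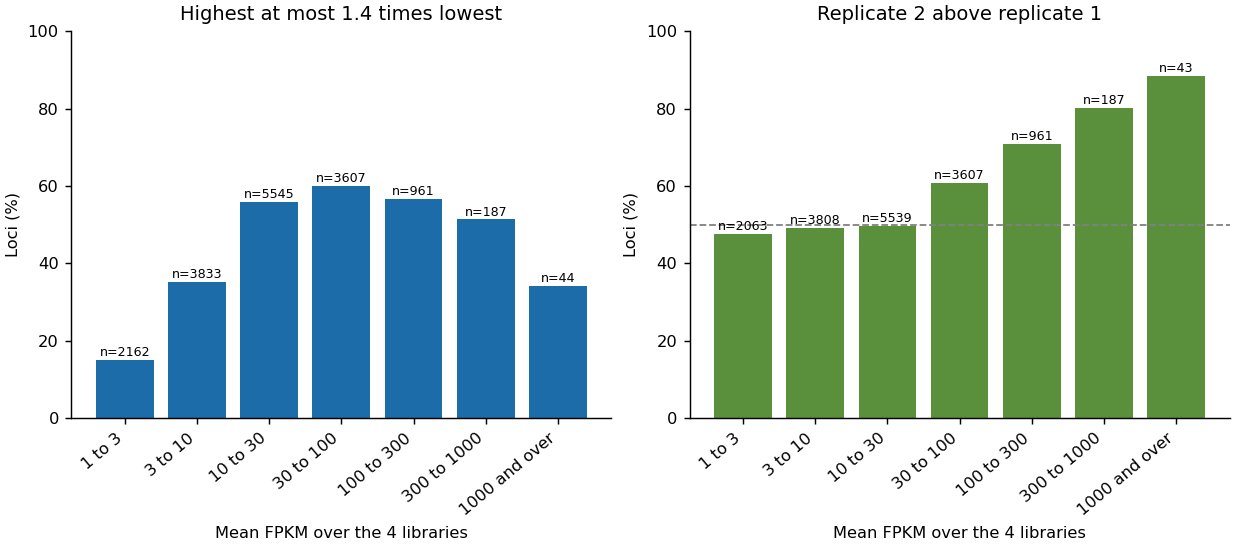
Share of loci with a single identifier (%, axis from 0) by mean FPKM: left, those whose highest value is at most 1.4 times the lowest; right, those with replicate 2 above replicate 1 on average over the stages, with a dashed line at 50%. The left share is highest at 30 to 100 FPKM (60.1%) and is 34.1% from 1000 FPKM, and the right share is 88.4% in that class.

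To see how far a choice on some libraries carries over to a library that it did not use, the same limits were applied to 3 libraries and the remaining one was then read. On 3 libraries, 111 loci were chosen without 120-day replicate 1, 113 without 120-day replicate 2, 107 without 150-day replicate 1 and 118 without 150-day replicate 2. With the library left out added back, 82.0%, 80.5%, 85.0% and 77.1% of these met the full rule. All 91 members are in each choice by construction, so these shares only reflect how many further loci 3 libraries let in. The value in the library left out was within 1.4-fold of the mean of the other 3 at 90.99%, 92.9%, 97.2% and 95.8% of the chosen loci. These were 101, 105, 104 and 113 loci. The 91 members are among them each time, since the limit on the ratio places every member within 1.4-fold. The shares therefore follow largely from the rule. Among the loci that met the floor but not the ratio in the 3 libraries, 62.5%, 51.7%, 68.2% and 54.4% were. These were 64, 58, 66 and 57 loci. They were set apart by their spread in the same 3 libraries whose mean is the measure, so their lower share is partly built in. The farthest departure was that of Cs6g11790, chosen without 150-day replicate 2, with 97365 FPKM in that library and a log2 distance of 1.39 from the mean of the others. It is named here because its value stands out.

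The stage comparison was also read separately by replicate number. The limits applied to the libraries of replicate 1 alone, 1 at each stage, chose 138 loci. In the libraries of replicate 2, which took no part in that choice, 96 of these (69.6%) had a ratio between the stages of at most 1.4. The share was 37.2% among the 43 loci that met the floor but not the ratio in replicate 1, and 65.1% among all tested loci with a single identifier. Chosen on replicate 2, 129 loci had a ratio of at most 1.4 in replicate 1 in 104 cases (80.6%), against 54.4% of the 57 loci not chosen and 70.9% of all tested loci with a single identifier. All but 4 of the 138 loci and all but 1 of the 129 stayed within 2-fold in the other pair. Over all loci that met the floor in the choosing pair, chosen or not, the share was 61.9% of 181 loci for replicate 1 as the choosing pair. For replicate 2 it was 72.6% of 186 loci. The abundant loci not chosen were set apart by a wide ratio, which makes them a low base. The shares of the chosen loci were above theirs, and nearer to those of all loci at the floor and of all tested loci with a single identifier. The labels do not say that libraries of equal number belong together, and the crossed differences run across the 2 pairs. The pairs are therefore no independent check on each other, and the shares are a description.

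Features of the identifiers were not used by the rule beyond asking for a single one. Identifiers beginning with Cs, followed by a digit and a g, were carried by 81 members and identifiers beginning with orange1.1t by 10 (11.0%), against 12.2% of the abundant loci past the limit and 15.5% of the 16339 tested loci with a single identifier. By series, Cs6g had 15 members, Cs5g 12, Cs7g 11, Cs9g 10, Cs8g 9, Cs3g 7, Cs4g 7, Cs1g 5 and Cs2g 5. The Cs6g series made up 16.5% of the members and 8.16% of the tested loci with a single identifier. It also made up 15.2% of the 165 abundant loci, members and others together. Of the abundant loci of a series, members were 38.5% in Cs1g and 69.2% in Cs8g, the extremes, which rest on 13 loci each. No member's identifier appeared on more than 1 locus of the table.

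Members were scattered over the numbering of the table, and 2 pairs of them were neighbours. Cs6g10270 (XLOC_016411) and Cs6g10280 (XLOC_016412) formed the first. Cs6g10270 stood at 357 and 424 FPKM at 120 days and at 411 and 409.5 FPKM at 150 days, and Cs6g10280 at 648 and 593 FPKM at 120 days and at 616 and 706 FPKM at 150 days. The 2 loci moved in opposite directions between the replicates of 120 days. Cs9g13060 (XLOC_023268) and Cs9g13070 (XLOC_023269) formed the second, with stage means of 452 ± 6.72 and 506 ± 55.2 FPKM for the former and 361 ± 6.52 and 381 ± 4.02 FPKM for the latter (SD, n = 2). Whether neighbouring loci are related copies that share reads cannot be seen without their sequences, and how such reads were counted is not given in the sources used here.

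Values of the loci next to members were set beside those of all tested loci, without a test. Of the 182 neighbouring positions, 53 held loci under the test's minimum. The 129 distinct tested neighbours had a median of 22.5 FPKM, against 15.1 FPKM for all tested loci, and 51.9% of them had a ratio of at most 1.4, against 43.2%. Neighbours with a mean of at least 300 FPKM numbered 10 (7.75%, against 2.33% of all tested loci), and 4 of these were the members in the 2 pairs. Without these 4, the median was 22.0 FPKM, 50.4% met the ratio and 6 of the other 125 had a mean of at least 300 FPKM. The stage call was made at 1 neighbour, 0.775% against 2.86% of all tested loci. This was Cs6g13640, next to the member Cs6g13660. It stood at 31.8 and 29.6 FPKM at 120 days and at 64.8 and 64.7 FPKM at 150 days (limma log2 change 1.05, adjusted p = 0.0309), while Cs6g13660 was lower at 150 days without passing the threshold.

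The demand for a single identifier left out 36 loci that met both limits. Of these 33 carry no reference gene name, and 3 carry several identifiers. The 33 loci without a name had a median of 1512 FPKM, above the 461 FPKM of the members, and reached 270520 FPKM. Among loci at or above the floor in every library, those meeting the ratio were 33 of 168 without a name, 3 of 11 with several identifiers and 91 of 165 with a single identifier. The shares of these classes were not tested against each other.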

How the data were processed

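The authors deposited FPKM for each locus and library, with Cufflinks locus numbers. The submitters' processing notes name TopHat and Cufflinks without versions. Genome build and annotation: not given in the sources used here. Poly(A) RNA was fragmented and reverse-transcribed from random primers, per the labels' protocols, which mention no strand marking.

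From the deposited FPKM, members were found by the limits given above. The members, lists and tests were chosen with earlier results of these data known. The loci tested, all with means of 1 FPKM or more, were fitted on log2(FPKM + 1), which understates changes of low loci, with limma 3.58.1 in R 4.3.3 (mean-variance trend, 2 residual degrees of freedom, two-sided, Benjamini-Hochberg, threshold 0.05). The fit was checked on simulated data for the recovery of known changes. The simulated noise was independent between loci and libraries and held no crossed pattern, so the check does not cover calls under that pattern. Tables were handled with pandas 2.3.3 and NumPy 2.4.6. Named loci are the members extreme in mean, ratio, lowest value or stage difference, neighbouring members, and loci nearest outside the limits. Low FPKM values were examined for steps of 1 fragment. Between 120-day replicate 1 and 150-day replicate 2, 29.8% of 1240 loci under 0.4 FPKM shared a ratio within 0.1%. Between 120-day replicate 2 and 150-day replicate 1 it was 1.59%, and in each remaining pair at most 0.534%. Fragments were not recovered, since locus lengths are not given. The labels do not say whether equal replicate numbers share anything. The p-values rest on the spread between libraries of a stage, in which pools and any differences of preparation or run are not separated.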

Additional observations from a re-analysis of the deposited data

How the results depend on the processing

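The count of 0 called members held in all 14 alternative fits, which follows from the limit on the ratio. The count of members was 193 with a floor of 200 FPKM and 35 with a floor of 500 FPKM. It was 88 to 118 under both scalings and without any one library, 63 and 104 with a limit of 1.3 and 1.5, and 127 with loci of several identifiers or none. Of the 91 members, 88 remained after scaling to a common median and 85 after quantile normalization. The members' median log2 change of 0.03 was -0.0093 after quantile normalization, -0.0012 with loci of any identifier class, and -0.0032 to 0.082 without one library, so its sign is not settled. Over all tested loci the 535 calls became 162 without a filter, 15 to 313 without one library (313 and 146 without 120-day replicates 1 and 2, 39 and 15 without 150-day replicates 1 and 2; 1 residual degree of freedom), and 870 with the replicate block. With the numbers crossed as a block, added after the data were seen, there were 1944. Differences within the stages tended to be opposite between equal numbers (r = -0.33 across 18727 loci and -0.74 across the members, sets that differ in level). Under other pseudocounts and scalings, 108 of 112 log2 changes of the 28 named members moved by less than 1 SD between replicates and 4 by more; without one library a shift cannot exceed that SD by construction. The stages of 18 members lay apart with 150 days higher and of 16 with 150 days lower after quantile normalization (19 and 13 as deposited). The cause of these shifts was not tested. The unknown depth and 2 libraries per stage limit what a small change can show.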
